A study of Mus musculus with 6 samples.

Results

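The 9 genes described here are the calcium/calmodulin-dependent protein kinase II (CaMKII) genes *Camk2a*, *Camk2b*, *Camk2d* and *Camk2g*, the CaMKII inhibitor genes *Camk2n1* and *Camk2n2*, and the kinase genes *Camk4*, *Camkk1* and *Camkk2*. They were taken by symbol, and all 9 were among the 25239 genes listed in each library. Hippocampal RNA was sequenced from 3 Ube3am+/p+ (WT) and 3 Ube3am-/p+ male mice at an age of 6 to 8 weeks, each giving 1 library. Mice of both genotypes were C57BL/6 and carried the paternal *Ube3a* allele. Ube3am-/p+ mice, a model of Angelman syndrome, lack the maternal allele, which is the one that most neurons express. The RNA was from bulk tissue, so neurons and glia were measured together and fewer cells of a type cannot be told apart from less RNA per cell.

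CaMKII is a holoenzyme of many subunits that is opened by calcium-bound calmodulin and then phosphorylates itself, which keeps it active after calcium has fallen. In excitatory synapses of the forebrain it is known for its part in long-term potentiation, and the α and β subunits, encoded by *Camk2a* and *Camk2b*, are the main brain forms. In a separate branch, the CaMK kinases encoded by *Camkk1* and *Camkk2* phosphorylate CaMKI and CaMKIV, and CaMKIV (*Camk4*) acts in the nucleus on CREB. The small proteins encoded by *Camk2n1* and *Camk2n2* bind the active CaMKII and inhibit it. In the hippocampus of Angelman syndrome mice, CaMKII is known for raised inhibitory phosphorylation, which is a property of the protein that RNA counts do not measure.

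The only one of the 9 genes called between the genotypes was the inhibitor gene *Camk2n2*, which was higher in Ube3am-/p+ mice. Of all genes tested, 2.01% were called. *Camk2n1*, its more abundant paralogue, did not pass the test. Its CPM was lower in all 3 Ube3am-/p+ mice than in any WT mouse, as was that of 14.2% of all genes. The call of *Camk2n2* was lost once each library was corrected for the GC content and length of transcripts (adjusted p = 0.0736 by edgeR). After this correction 0.649% of all genes were called. The call was also lost in 4 of 6 fits with 1 mouse left out, and these called only 0.00% to 0.0137% of all genes. The coding sequences of the pair are shown because the 2 genes went in opposite directions and are read from related but distinct messages. Capitals mark the bases that differ from the other sequence or have no partner in it in a global alignment of both. The sequences are from GENCODE M21 on GRCm38, the assembly also named mm10.
Camk2n1: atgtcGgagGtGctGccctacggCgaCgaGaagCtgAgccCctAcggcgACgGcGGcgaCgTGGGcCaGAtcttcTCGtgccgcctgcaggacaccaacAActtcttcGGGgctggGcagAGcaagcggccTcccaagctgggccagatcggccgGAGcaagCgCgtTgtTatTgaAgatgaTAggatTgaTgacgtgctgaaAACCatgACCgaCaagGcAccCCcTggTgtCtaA
Camk2n2: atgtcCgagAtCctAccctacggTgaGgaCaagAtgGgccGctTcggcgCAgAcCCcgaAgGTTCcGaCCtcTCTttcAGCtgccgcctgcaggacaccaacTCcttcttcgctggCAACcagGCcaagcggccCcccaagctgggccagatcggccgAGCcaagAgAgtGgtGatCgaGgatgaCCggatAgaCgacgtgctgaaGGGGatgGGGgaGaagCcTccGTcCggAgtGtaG
The *Camk2n1* coding sequence has 237 bases in 2 exons on the plus strand (chr4:138455186-138456788, intron included), and that of *Camk2n2* has 240 bases in 2 exons on the minus strand (chr16:20620173-20621194, intron included). Of 234 aligned bases, 172 (73.5%) were identical. The GC content of the coding sequences was close, 61.2% in *Camk2n1* and 62.9% in *Camk2n2*. Over the longest annotated transcript it was 53.7% in *Camk2n1* (4444 bases) and 63.9% in *Camk2n2* (1291 bases).

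The libraries held 7293272 to 8675252 counts on genes in WT mice and 8871052 to 11314409 in Ube3am-/p+ mice. *Ube3a*, the targeted gene, had 104, 141 and 151 CPM (counts per 1000000 counts on genes) in WT mice 1, 2 and 3, against 96.8, 82.9 and 80.6 CPM in Ube3am-/p+ mice 1, 2 and 3. Its exons share 1803 bases with those of *Snhg14*, which is read from the other strand. The libraries also differed in how expression followed the GC content of the transcript. Over 14325 genes (a description, as genes share their libraries), the rank correlation (rho) of transcript GC content with a library's deviation from the average library was 0.0451, -0.505 and -0.571 in WT mice 1, 2 and 3, against 0.0581, 0.525 and 0.529 in Ube3am-/p+ mice 1, 2 and 3. The median log2 fold change was -0.29 in the tenth of genes with the lowest GC content and 0.26 in the tenth with the highest. For this reason the fold changes below are followed by their values after a correction of every library for the GC content and length of the transcripts, and genotype and this gradient cannot be told apart in mice 2 and 3. After this correction *Ube3a* overlapped between the genotypes, at 102 to 123 CPM in WT mice and 95.3 to 105 CPM in Ube3am-/p+ mice. The defining markers of hippocampal neurons, *Prox1* in dentate granule cells and *Wfs1* in CA1 pyramidal cells among them, were each above 1 CPM in at least 1 library.

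Levels of different genes were compared per kilobase of the longest transcript. *Camk2a* was the most abundant, with 1117 ± 68.1 CPM per kilobase (SD, n = 3) in WT mice and 1130.0 ± 57.4 (SD, n = 3) in Ube3am-/p+ mice, which placed it in rank 3 of 14325 genes. *Camk2b* followed with 417 ± 36.6 CPM per kilobase in WT mice and 446 ± 31.5 in Ube3am-/p+ mice (SD, n = 3). *Camk2n1* came next, with 198 ± 9.82 and 178 ± 6.79 CPM per kilobase (SD, n = 3). The ranges of these 3 genes over the 6 libraries did not overlap with one another or with that of any other member. *Camkk1*, *Camk2g*, *Camk4*, *Camkk2* and *Camk2n2*, in this order, had means over the 6 libraries between 38.6 and 68.4 CPM per kilobase, and each overlapped the next in its range. *Camk2d* had the lowest level, at 4.18 to 6.53 CPM per kilobase, below all other members in every library.

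All 9 members passed the filter on low counts and were tested among the 14445 genes kept, by the quasi-likelihood test of edgeR on TMM-scaled counts, comparing the genotypes with no covariate. Calls required a fold change over 1.2 with p under 0.05 after Benjamini-Hochberg adjustment across all genes. These p-values set the difference against the spread between the 3 mice of a genotype, which may in part be technical. In this test the variance of a gene is drawn towards that of other genes, so its own spread is not the only source. Of the 9 members 1 was called, against 2.01% of all genes tested. At an unadjusted p below 0.05 there were 3 of 9 (*Camk2n2* and *Camk2g* higher, *Camk4* lower in Ube3am-/p+ mice), against 24.6% of all genes, and 2 of them (*Camk2n2* and *Camk4*) also had a fold change over 1.2, against 19.6%. The genotypes did not overlap in the CPM of 3 of 9 members (*Camk2n2*, *Camk2g* and *Camk2n1*), against 25.0% of all genes. Of these, 2 were higher in every Ube3am-/p+ mouse and 1 was lower, against 10.8% and 14.2% of all genes. The shares of members in these last counts rest on few genes and lie near the background. The median log2 fold change of the 9 members was 0.10, and 0.0025 over all genes tested. After the GC content and length correction these medians were 0.0127 and -0.0105.

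**Figure D1:**
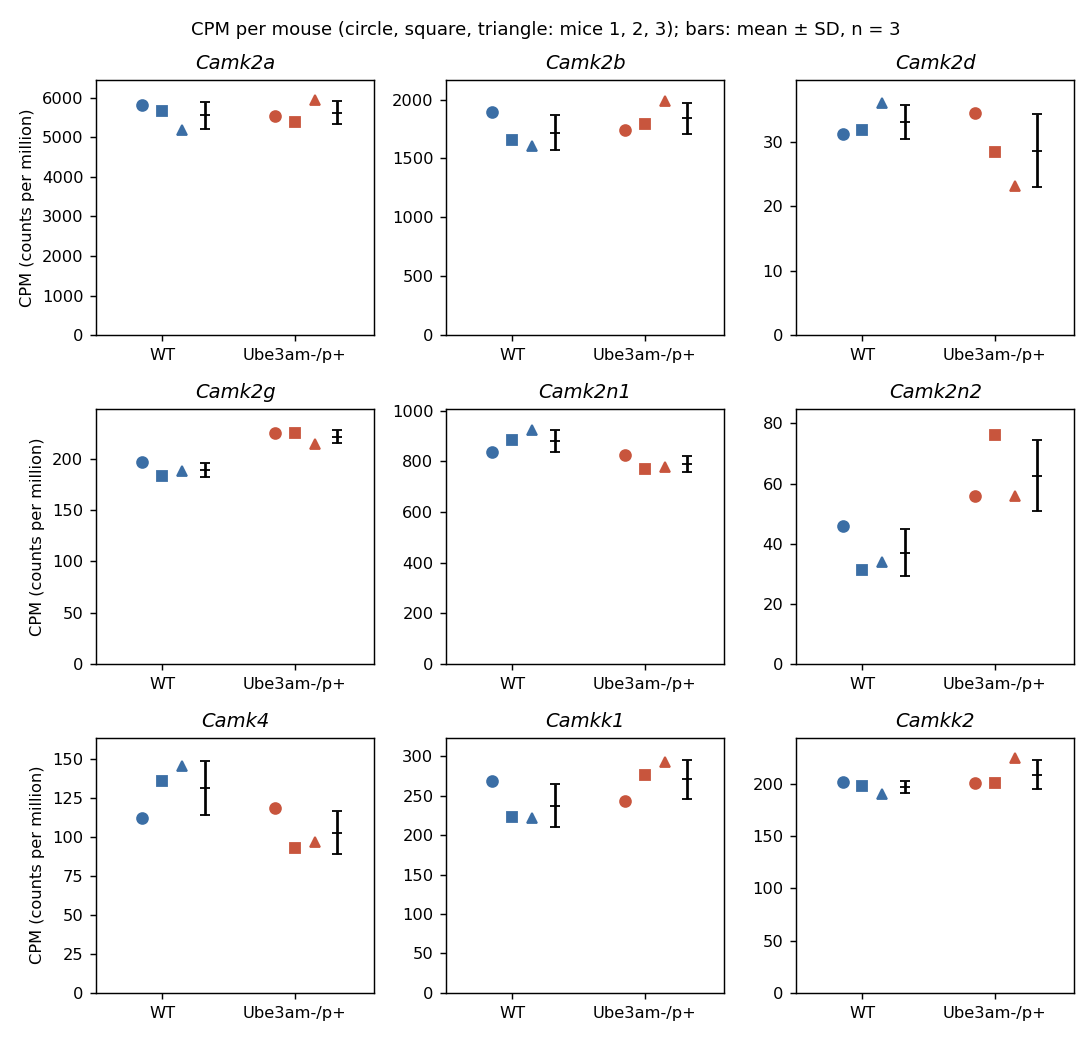
CPM (counts per 1000000 counts on genes) of each of the 9 genes in every mouse, with circles, squares and triangles for mice 1, 2 and 3 and bars for mean ± SD (n = 3) of WT (blue) and Ube3am-/p+ mice (red). The 3 Ube3am-/p+ mice lie above every WT mouse for *Camk2n2* and *Camk2g* and below every WT mouse for *Camk2n1*, while the genotypes overlap for the other 6 genes.

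The catalytic subunits were examined first. *Camk2a* (chr18:60925618-60988152) encodes the α subunit of forebrain excitatory neurons. It had 5814, 5667 and 5168 CPM in WT mice 1, 2 and 3 and 5537, 5379 and 5933 CPM in Ube3am-/p+ mice 1, 2 and 3. The values of the genotypes were interleaved, with the lowest in WT mouse 3 and the highest in Ube3am-/p+ mouse 3. Fitted over all mice, its log2 fold change was 0.04 (SE 0.08, adjusted p = 0.828 by edgeR), with a 95% interval of -0.14 to 0.21, that is a fold change between 0.907 and 1.16. Its sign was not settled, since it was -0.04 after the GC content and length correction (adjusted p = 0.863 by edgeR).

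*Camk2b* (chr11:5969644-6066362) encodes the β subunit, which also binds actin. It had 1890.2, 1658 and 1607 CPM in WT mice 1, 2 and 3 and 1739, 1794 and 1986 CPM in Ube3am-/p+ mice 1, 2 and 3. WT mouse 1 exceeded Ube3am-/p+ mice 1 and 2, so the genotypes overlapped. Its log2 fold change was 0.12 (SE 0.09, 95% interval -0.08 to 0.31, adjusted p = 0.449 by edgeR) and 0.01 after the correction.

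*Camk2g* (chr14:20734875-20794088) encodes the γ subunit, which is found in many tissues. It had 197, 183 and 188 CPM in WT mice 1, 2 and 3 and 226, 225 and 214 CPM in Ube3am-/p+ mice 1, 2 and 3. All 3 Ube3am-/p+ mice exceeded all 3 WT mice, and the spread within either genotype was small, with means of 189 ± 6.76 and 222 ± 6.60 CPM (SD, n = 3). With a log2 fold change of 0.25 (SE 0.08, 95% interval 0.08 to 0.41), an unadjusted p of 0.00646 and an adjusted p of 0.0803 by edgeR, the gene was not called. After the GC content and length correction it was 0.19 (adjusted p = 0.166 by edgeR), and the genotypes were still without overlap, at 189 to 197 corrected CPM in WT mice and 209 to 225 in Ube3am-/p+ mice. How many of all genes stay without overlap after the correction is not given here. DESeq2 gave an adjusted p of 0.03996 with a fold change under 1.2, where 5.05% of the genes tested by DESeq2 had an adjusted p below 0.05 and 4.94% also passed the fold change. Without WT mouse 1 the gene was called (log2 fold change 0.28, adjusted p = 0.0217 by edgeR), as were 17.6% of all genes.

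*Camk2d* (chr3:126596302-126846326) encodes the δ subunit, best known from heart muscle. It had 31.2, 31.8 and 36.1 CPM in WT mice 1, 2 and 3 and 34.5, 28.4 and 23.1 CPM in Ube3am-/p+ mice 1, 2 and 3, on 243 to 321 counts per library. Ube3am-/p+ mouse 1 lay among the WT mice and the others below them. Between the genotypes, the log2 fold change was -0.19 (SE 0.14, 95% interval -0.48 to 0.10, adjusted p = 0.397 by edgeR), and -0.02 after the correction. *Camk2d* has the lowest GC content of the 9 genes, at 43.9%.

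The make-up of CaMKII was compared within each library, where the scaling between libraries has no part. *Camk2a* took 73.3%, 75.2% and 73.8% of the counts of the 4 CaMKII genes in WT mice 1, 2 and 3, and 73.5%, 72.4% and 72.7% in Ube3am-/p+ mice 1, 2 and 3. The means differed by -1.22 percentage points (exact permutation test, two-sided p = 0.2, adjusted p = 0.3 over the 4 ratios compared), where 0.1 is the smallest p that 3 mice against 3 allow. There were 3.24 ± 0.172 *Camk2a* counts per *Camk2b* count in WT mice and 3.06 ± 0.111 in Ube3am-/p+ mice (SD, n = 3), a difference of -0.08 on the log2 scale (exact permutation test, two-sided p = 0.2, adjusted p = 0.3). *Camk2b* took 22.0% to 24.4% of the CaMKII counts, *Camk2g* 2.43% to 3.03% and *Camk2d* 0.283% to 0.515%. The sum of the 4 genes was 6999.6 to 7932 CPM in WT mice and 7427 to 8157 CPM in Ube3am-/p+ mice, with overlap.

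The inhibitors were examined next. *Camk2n2* (chr16:20619215-20621287) was counted 391, 271 and 247 times in WT mice 1, 2 and 3, against 495, 863 and 587 times in Ube3am-/p+ mice 1, 2 and 3. These were 46.1, 31.2 and 33.9 CPM in WT mice and 55.8, 76.3 and 55.8 CPM in Ube3am-/p+ mice. Every Ube3am-/p+ mouse was above every WT mouse, and the highest value, in Ube3am-/p+ mouse 2, stood apart from the others. The means were 37.1 ± 7.91 and 62.6 ± 11.8 CPM (SD, n = 3), and the fitted fold change was 1.71 (log2 0.78, SE 0.16, 95% interval 0.44 to 1.11, adjusted p = 0.0362 by edgeR). By exact permutation of the mice, the two-sided p for log2 CPM was 0.1, the smallest possible. This value follows from the lack of overlap and adds nothing to it. It was also 0.1 for *Camk2g* and *Camk2n1*.

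The GC content of the *Camk2n2* transcript exceeded that of 99.2% of the tested genes, and the part of its values that followed GC content and length was 0.39 higher in Ube3am-/p+ mice on the log2 scale. After the correction the log2 fold change was 0.40 (SE 0.11, 95% interval 0.17 to 0.63, adjusted p = 0.0736 by edgeR), and the gene was no longer called, nor was any other member, against 0.649% of all genes. At an unadjusted p below 0.05 there were 4 members after the correction (*Camk2n2*, *Camk2g*, *Camk2n1* and *Camk4*), against 14.2% of all genes. The corrected values were 45.2, 37.5 and 42.9 CPM in WT mice 1, 2 and 3 and 54.9, 63.6 and 45.5 CPM in Ube3am-/p+ mice 1, 2 and 3. The genotypes still did not overlap, but WT mouse 1 and Ube3am-/p+ mouse 3 were nearly equal. The share of all genes without overlap after the correction is not given here. With 1 mouse left out the log2 fold change stayed between 0.62 and 0.97, and the call was lost without WT mouse 2 (adjusted p = 0.232), WT mouse 3 (0.198), Ube3am-/p+ mouse 2 (0.251) or Ube3am-/p+ mouse 3 (0.121), all by edgeR. In the fits without WT mouse 2, WT mouse 3 or Ube3am-/p+ mouse 2, 0 genes in all were called by edgeR, against 2075, 2159 and 2128 at an unadjusted p below 0.05 (DESeq2 was not run on these), and without Ube3am-/p+ mouse 3 0.0137% were. DESeq2 called *Camk2n2* over all mice (log2 fold change 0.78, adjusted p = 0.000793).

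*Camk2n1* (chr4:138454314-138460123) had 836, 884 and 923 CPM in WT mice 1, 2 and 3 and 824, 768 and 776 CPM in Ube3am-/p+ mice 1, 2 and 3. All Ube3am-/p+ mice were below all WT mice, although those numbered 1 were 836 and 824 CPM. In the fit its log2 fold change was -0.14 (SE 0.08, 95% interval -0.31 to 0.03, adjusted p = 0.289 by edgeR). Whereas *Camk2n2* moved towards 0 with the correction, *Camk2n1* moved away from it, to -0.24 (95% interval -0.39 to -0.08, unadjusted p = 0.00387, adjusted p = 0.1145 by edgeR). It was not called in any fit with 1 mouse left out, where 0.00% to 17.6% of all genes were.

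Of the counts of both inhibitors together, *Camk2n2* took 5.22%, 3.41% and 3.54% in WT mice 1, 2 and 3, against 6.34%, 9.04% and 6.71% in Ube3am-/p+ mice 1, 2 and 3. There were 18.2 to 28.3 *Camk2n1* counts per *Camk2n2* count in WT mice and 10.1 to 14.8 in Ube3am-/p+ mice. This ratio was formed after the values of both genes were seen, and is given without a test. On the log2 scale *Camk2n2* over *Camk2n1* was higher by 0.92 in Ube3am-/p+ mice, and by 0.63 after the correction, without overlap in either case. Since *Camk2n1* held most of the inhibitor counts, the sum of both was lower relative to the kinase in Ube3am-/p+ mice in mean. There were 8.18 ± 0.840 CaMKII counts per inhibitor count in WT mice and 9.06 ± 0.659 in Ube3am-/p+ mice (SD, n = 3), and the log2 ratio of inhibitor to kinase differed by -0.15 (exact permutation test, two-sided p = 0.3, adjusted p = 0.3).

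**Figure D2:**
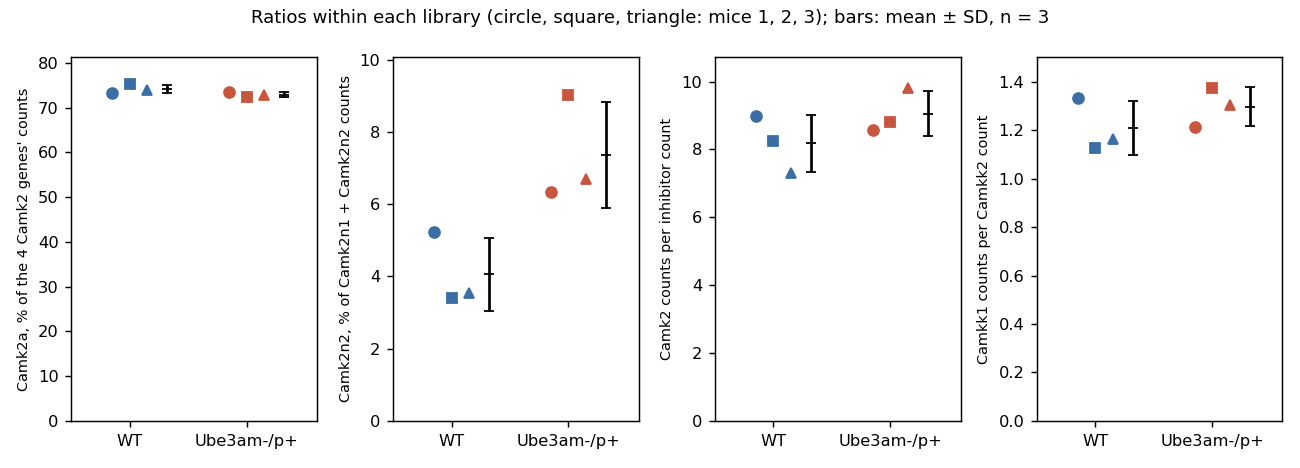
Ratios of counts within each library, with circles, squares and triangles for mice 1, 2 and 3 of each genotype and bars for mean ± SD (n = 3). From left to right, the panels show the *Camk2a* share of CaMKII counts (%), the *Camk2n2* share of inhibitor counts (%), CaMKII counts per inhibitor count and *Camkk1* counts per *Camkk2* count. Only the *Camk2n2* share separates the genotypes among these panels, at 3.41% to 5.22% in WT mice and 6.34% to 9.04% in Ube3am-/p+ mice.

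In the CaMKK and CaMKIV branch, *Camk4* (chr18:32934931-33191228) encodes CaMKIV and had the lowest log2 fold change of the 9 genes. It had 112, 136 and 146 CPM in WT mice 1, 2 and 3 and 118, 92.6 and 96.9 CPM in Ube3am-/p+ mice 1, 2 and 3. WT mouse 1 was below Ube3am-/p+ mouse 1, so the genotypes overlapped, while mice 2 and 3 of each genotype did not. This gave a log2 fold change of -0.34 (SE 0.11, 95% interval -0.57 to -0.10), with an unadjusted p of 0.00802 and an adjusted p of 0.0878 (edgeR). It was little changed by the correction, at -0.32 (adjusted p = 0.103 by edgeR), and the GC content of its transcript, 48.2%, is near the median of 49.9%. An adjusted p below 0.05 was reached without WT mouse 1 (log2 fold change -0.44, adjusted p = 0.00886 by edgeR) and without Ube3am-/p+ mouse 1 (-0.44, adjusted p = 0.0180 by edgeR), where 17.6% and 12.5% of all genes were called. Over all mice *Camk4* was called without the filter on low counts (-0.33, adjusted p = 0.0409 by edgeR), where 6.10% of all genes were. Exons of *2310026I22Rik* on the opposite strand overlap those of *Camk4* over 72 bases, and the strand setting of the counting is not given in the sources used here.

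*Camkk1* (chr11:73019008-73042073) encodes CaMKKα. It had 269, 223 and 222 CPM in WT mice 1, 2 and 3 and 243, 276 and 293 CPM in Ube3am-/p+ mice 1, 2 and 3. The mice numbered 1 again went the other way from the rest. Fitted by edgeR, the log2 fold change was 0.21 (SE 0.10, 95% interval -0.00354 to 0.42, adjusted p = 0.209), and 0.07 after the correction. It was called without WT mouse 1 (log2 fold change 0.31, adjusted p = 0.0267 by edgeR), as were 17.6% of all genes. It was called in no other fit with 1 mouse left out, where 0.00% to 12.5% of all genes were. *Camkk2* (chr5:122731170-122779409) encodes CaMKKβ, which also phosphorylates the energy sensor AMPK. It had 201, 198 and 190.0 CPM in WT mice and 200.4, 201 and 224 CPM in Ube3am-/p+ mice 1, 2 and 3, a log2 fold change of 0.10 (SE 0.08, 95% interval -0.07 to 0.28, adjusted p = 0.458 by edgeR), and of 0.03 after the correction. Apart from Ube3am-/p+ mouse 3, the libraries lay within a narrow range. There were 1.21 ± 0.110 *Camkk1* counts per *Camkk2* count in WT mice and 1.30 ± 0.0804 in Ube3am-/p+ mice (SD, n = 3), a log2 difference of 0.10 (exact permutation test, two-sided p = 0.3, adjusted p = 0.3).

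**Figure D3:**
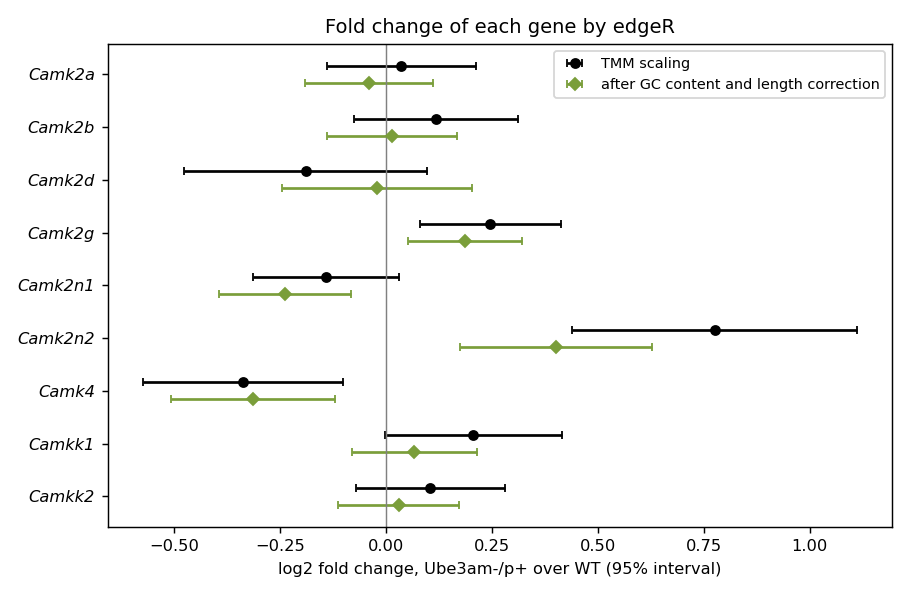
Log2 fold change (Ube3am-/p+ over WT) of each of the 9 genes with its 95% interval, from edgeR with TMM scaling (black circles) and after the GC content and length correction (green diamonds). The intervals of *Camk2n2*, whose fold change moves from 0.78 to 0.40, and of *Camk2g* lie above 0 in both fits. That of *Camk4* lies below 0 in both, and that of *Camk2n1* after the correction only. The intervals of *Camk2a*, *Camk2b*, *Camk2d*, *Camkk1* and *Camkk2* span 0 in both. The intervals are not adjusted for the number of genes, and only *Camk2n2* was called, before the correction.

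Several members followed the GC gradient of the libraries. The correlations here are a description over 6 libraries that differed in depth and in base composition. Pearson's r between log2 CPM and the GC rho of the library was 0.928 for *Camk2n2*, 0.948 for *Camkk1*, -0.986 for *Camk2n1* and -0.986 for *Camk4*. It was lowest in size for *Camk2a*, at 0.416. Both *Camk2n1*, whose transcript is above the median in GC content, and *Camk4*, near it, were thus lower where GC-rich genes were higher. Among the members, *Camk4* and *Camk2n1* were most alike over the 6 libraries (r = 0.983), followed by *Camkk1* and *Camk2b* (0.945) and by *Camk2g* and *Camk2n2* (0.940). *Camk4* and *Camkk1* were the most opposed pair (r = -0.948).

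Summed marker levels of several cell types also differed between the genotypes, in CPM without the GC content and length correction. Their part in the values above was not tested. The 4 excitatory neuron markers summed to 1704 to 2009 CPM in WT mice and 2016 to 2399 CPM in Ube3am-/p+ mice, with 2 of 4 genes higher in mean. The 5 interneuron markers summed to 616 to 631 CPM and 554 to 579 CPM, although 3 of 5 were higher in mean in Ube3am-/p+ mice. The 5 oligodendrocyte markers summed to 7534 to 7653 CPM and 6229 to 7146 CPM, with 2 of 5 higher, and the 5 microglia markers to 253 to 259.6 CPM and 238 to 242 CPM, with 2 of 5 higher. Oligodendrocyte precursor markers summed to 129 to 138 CPM and 116 to 119 CPM, with 0 of 3 higher and 1 called. These sums did not overlap between the genotypes, whereas those of dentate granule cells, CA pyramidal cells, astrocytes, endothelium, meninges with fibroblasts, and thalamus with striatum did. Of all single genes tested, 25.0% did not overlap in CPM. None of the markers was at 0 or stayed under 1 CPM in all libraries. Choroid plexus markers ranged from 98.6 to 2241 CPM between mice, with ranges that overlapped between the genotypes.

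**Figure D4:**
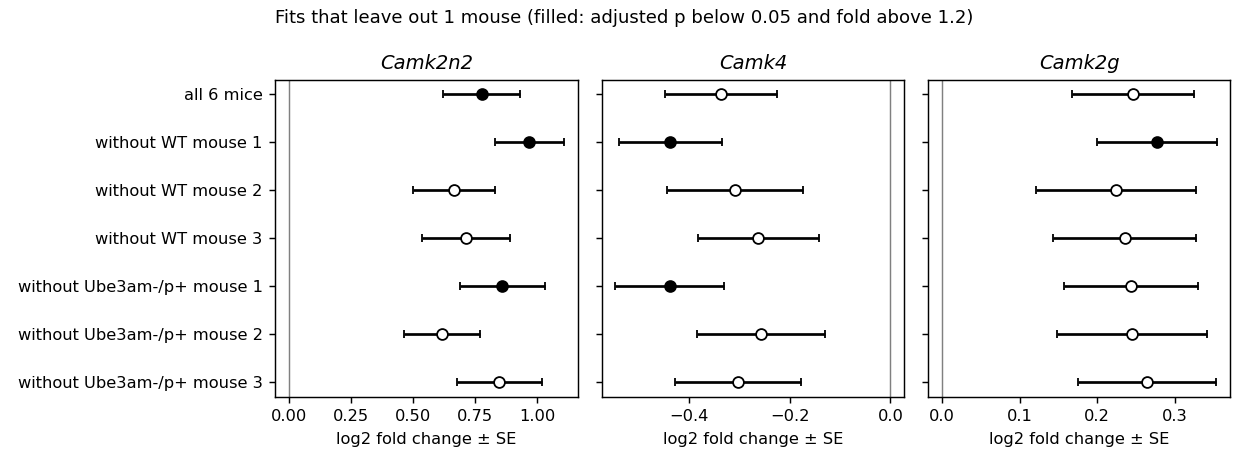
Log2 fold change ± SE of *Camk2n2*, *Camk4* and *Camk2g* with all 6 mice and with each mouse left out in turn, filled where the adjusted p was below 0.05 and the fold change above 1.2. The direction holds in every fit shown, while the call of *Camk2n2* is kept without WT mouse 1 and without Ube3am-/p+ mouse 1 only. In these fits 17.6% and 12.5% of all genes were called, and at most 0.0137% in the other fits with a mouse left out.

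A list of 49 other genes of calmodulin signalling was read beside the members, and 47 passed the filter, all but *Ppp3r2* with 4 counts and *Dapk2* with 38 counts over the 6 libraries. Of these, 2 were called and both were higher in Ube3am-/p+ mice, against 1.02% of all genes called higher. At an unadjusted p below 0.05 there were 10 higher and 9 lower of the 47, against 1765 higher and 1795 lower of all 14445 genes (24.6% in both directions). The median log2 fold change of the 47 was 0.01, beside 0.0025 over all genes. *Pcp4*, a small protein that binds calmodulin and speeds its exchange of calcium, had 64.5, 62.7 and 57.2 CPM in WT mice 1, 2 and 3 and 78.0, 89.6 and 102 CPM in Ube3am-/p+ mice 1, 2 and 3. The genotypes did not overlap, and it rose by 0.57 on the log2 scale (SE 0.11, adjusted p = 0.0362 by edgeR), and was still called after the correction at 0.49 (adjusted p = 0.0121 by edgeR), where 0.649% of all genes were. *Pcp4* shares 243 bases of exon with *Igsf5* on the same strand. *Pnck*, which encodes CaMKIβ, had 45.2, 42.0 and 47.7 CPM in WT mice 1, 2 and 3 and 53.2, 76.7 and 62.4 CPM in Ube3am-/p+ mice 1, 2 and 3. It rose by 0.53 on the log2 scale (SE 0.12, adjusted p = 0.0405 by edgeR) and was not called after the correction (0.32, adjusted p = 0.104 by edgeR).

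The 4 calmodulin-binding buffers were all higher in mean, as were 7273 of the 14445 genes tested, and 1 was called. The median log2 fold change of these 4 was 0.41, and 0.20 after the correction. *Nrgn*, or neurogranin, which holds calmodulin in dendritic spines, had a log2 fold change of 0.44 (adjusted p = 0.0930 by edgeR) and of 0.18 after the correction, with WT mouse 1 (1372 CPM) above Ube3am-/p+ mouse 1 (1367 CPM). *Calm3*, a gene for calmodulin itself, had a log2 fold change of 0.32 (adjusted p = 0.0632 by edgeR) and was at 0.09 after the correction, with a transcript GC content of 58.3%. Of 5 genes of the CaMKI branch 1 was called, and the pseudokinase gene *Camkv* had 0.32 (adjusted p = 0.0722 by edgeR), and 0.11 after the correction. For the CaMK phosphatases, *Ppm1e* had -0.31 (adjusted p = 0.0527) and *Ppm1f* 0.24 (adjusted p = 0.125 by edgeR), and after the correction -0.15 and 0.16.

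None of the other groups had a called gene. The 7 tested genes of calcineurin, the phosphatase that opposes CaMKII at synapses, and of its regulators had a median of -0.17 and included *Ppp3ca* at -0.26 (adjusted p = 0.0977) and *Ppp3r1* at -0.25 (adjusted p = 0.109 by edgeR), which were at -0.13 and -0.04 after the correction. Among the 9 genes downstream of CaMKK and CaMKIV, the median was -0.16, with *Creb1* at -0.34 (adjusted p = 0.0697) and the AMPK subunit gene *Prkaa2* at -0.42 (adjusted p = 0.0754 by edgeR). Both have a low GC content, 39.6% and 40.7%, and were at -0.03 and -0.15 after the correction. Among the 10 synaptic anchors and substrates of CaMKII, *Lrrc7*, which encodes the anchor densin, had -0.36 (adjusted p = 0.0513 by edgeR) and stayed at -0.28 after the correction, and *Grin2a* had -0.24 (adjusted p = 0.0967 by edgeR) and -0.07 after the correction. Of the 6 other kinase genes tested, *Itpka* had 0.22 and *Dclk1* -0.18, with adjusted p of 0.210 and 0.204 (edgeR). After the correction *Itpka* changed sign, to -0.09, and *Dclk1* was at -0.05. The medians of the calcineurin and downstream groups were -0.04 and -0.04 after the correction.

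**Figure D5:**
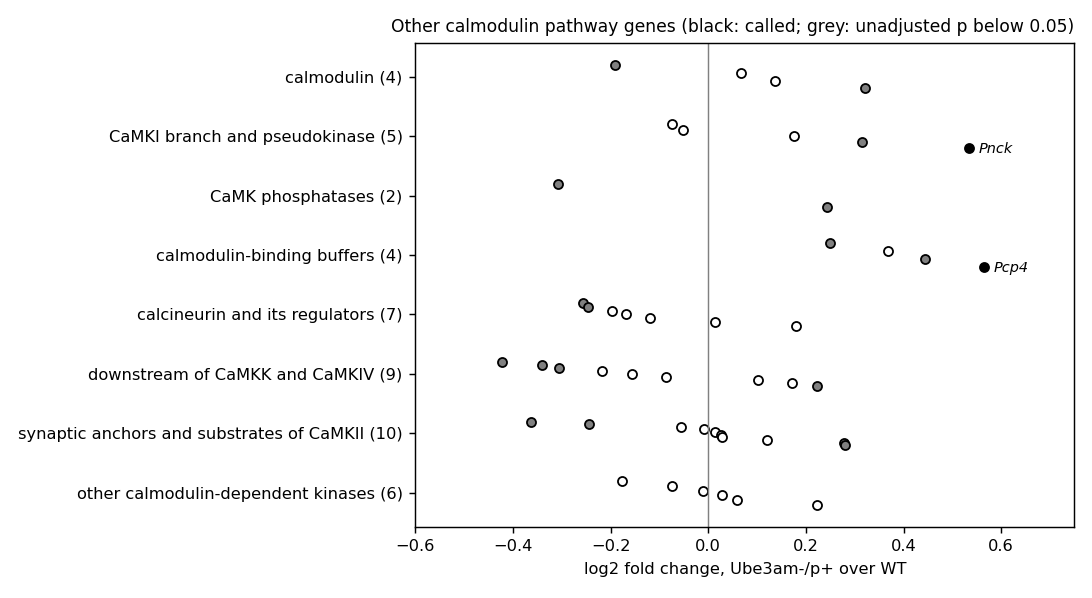
Log2 fold change (Ube3am-/p+ over WT) of the 47 tested genes of the calmodulin list, 1 point per gene, by group with the number tested in brackets. Black points are called (*Pnck* at 0.53 and *Pcp4* at 0.57), grey points have an unadjusted p below 0.05, and open points neither.

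The genes whose level over the 6 libraries was most like that of each CaMKII subunit gene were taken from the 10421 other tested genes with a mean of at least 10 CPM, by Pearson's r of log2 CPM. For *Camk2a* they were *Slc35c2* (0.967), *Rnpepl1* (0.965) and *Fam219aos* (0.964). *Camk2b* was nearest to *Rnf19b* (0.997), *Ppm1b* (0.996) and *Eid2* (0.994). *Camk2d* was nearest to *Plce1* (0.999), *Helz* (0.996) and *Spg11* (0.995), and *Camk2g* to *Bag1* (0.998), *Ddb1* (0.989) and *Sgta* (0.989). With 6 libraries and so many genes, values of this size describe likeness only, and no gene stands in the lists of 2 subunits.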

How the data were processed

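Hippocampal RNA of 3 WT (Ube3am+/p+) and 3 Ube3am-/p+ mice was analysed, grouped by sample titles. The authors deposited counts, whole numbers of reads per gene symbol in 1 file per mouse, without normalization. The submitters' processing notes name STAR 2.7.4a, HTSeq and mm10. The annotation and strand setting are not given in the sources used here. Reads on no gene made up 54.1% to 55.0% of those listed and stayed out of library sizes.

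CPM was computed on total gene counts. Tests were run in R 4.3.3 with edgeR 4.0.16 (filterByExpr, TMM, robust quasi-likelihood), and DESeq2 1.42.0 as an alternative. Standard errors derive from the F statistic. The correction fitted each library's deviation by natural splines (5 degrees of freedom per term) of the GC content and log2 length of a gene's longest transcript in GENCODE M21 (GRCm38), for 14325 of the 14445 genes tested (99.2%). It entered edgeR as fixed values, so the corrected standard errors, intervals and p-values leave out its own error. The steps were tested on simulated data without a GC or length gradient, so the removal of such a gradient was not tested. Ratios were compared by exact permutation over mice.

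The members, lists and markers were chosen with earlier results of these data known. Named genes were the members, *Ube3a*, called genes and up to 2 genes of the smallest p in each group of the list, and the 3 nearest patterns per CaMKII gene. Values of some genes covered by this rule are not reported here. Alternatives were other scalings and filters, a replicate block, the correction, other call rules and leaving out mice.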

Additional observations from a re-analysis of the deposited data

How the results depend on the processing

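The number of members called, 1 of 9, was unchanged with library size only, RLE or upper-quartile factors, at least 10 counts in every library, DESeq2, or no fold threshold. It was 2 without a filter (*Camk4* added) and 2 with an unadjusted p below 0.05 and the same fold change. It was 0 after the GC content and length correction (4 at an unadjusted p below 0.05 by edgeR), also with the replicate block added. With 1 mouse left out it ran from 0 to 4, the 4 being without WT mouse 1, and it was 4 without both mice numbered 1 (*Camk2n2*, *Camk4*, *Camk2d* and *Camkk1*), a choice made after seeing the data, where 28.3% of all genes were called. The number of all genes called, 290, became 953 with DESeq2, 1176 without a filter, 2832 with the unadjusted p, 93 after the correction and 17 after the correction with the block. It ran from 0 to 2582 with 1 mouse left out and was 4138 without both mice numbered 1. With the replicate block alone, 0 members (3 at an unadjusted p below 0.05) and 0 genes (2422) were called by edgeR. Without the block, 1 member and 290 genes were called by edgeR, and 1 and 953 by DESeq2. Whether the numbers pair the mice was not settled. Deviations of same-numbered mice from their genotype means correlated at -0.285, -0.177 and -0.311 across genes. These values contain the GC gradient of the libraries and cannot decide it. The GC rho of the mice numbered 1 was 0.0451 (WT) and 0.0581 (Ube3am-/p+). *Camk2a* changed sign after the correction (log2 fold change -0.0402, and -0.0416 with the block) and ran from -0.0188 to 0.0759 with 1 mouse left out. The other 8 members kept their direction in every fit. The 4 ratios kept their direction when divided by transcript length or corrected, and moved by less than the spread between mice with 1 mouse left out. Genotype and the GC gradient of the libraries coincide in mice 2 and 3, which limits all these values.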
